A study of Mus musculus with 12 samples.

Results

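STING, encoded by Tmem173, was deleted in myeloid cells of adult mice, and the colon of mice that had received no colitis agent was compared between genotypes. The comparison took 6 of the 12 libraries of the series, 3 from Tmem173iΔmye mice and 3 from Tmem173fl/fl controls, and every gene with at least 0.1 FPKM (fragment counts scaled by gene length and by the library total) in at least 3 of the 12 libraries. This kept 24102 of the 54532 genes in the table. It addresses what the loss of myeloid STING does to colon tissue before any injury.

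Both groups were C57BL/6N mice carrying floxed Tmem173 alleles, and only Tmem173iΔmye mice also carried Lyz2-CreERT2, a tamoxifen-activated Cre recombinase driven by the Lyz2 gene. Mice of both genotypes were injected with tamoxifen 5 times, on alternate days, at an age given as 5 to 6 or 6 to 8 weeks, and drank distilled water thereafter. The presence of Cre and the deletion of Tmem173 therefore went together and cannot be told apart here. The labels name the genotypes WT and CRE, read here as the study's Tmem173fl/fl and Tmem173iΔmye. Each library was polyadenylated RNA from colon; whether each came from a separate mouse is not given in the sources used here, so p-values measure only the spread between these libraries.

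STING is an adaptor of the endoplasmic reticulum that binds cyclic GMP-AMP, the second messenger made by cGAS (Mb21d1) on contact with double-stranded DNA in the cytosol. Bound STING recruits the kinase TBK1, which phosphorylates IRF3, and also feeds NF-κB, so that interferons, interferon-stimulated genes and inflammatory cytokines are transcribed. In the gut, STING is found in macrophages, dendritic cells, endothelium and lymphocytes as well as in the epithelium, while Lyz2 marks macrophages, monocytes and neutrophils.

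The driver gene matters for reading these libraries, and it has a neighbouring near-copy. Lyz2 lies on the minus strand at chr10:117277331-117282321 (GRCm38) and Lyz1, the lysozyme of Paneth cells, begins next to it at chr10:117287797-117292868. The 250 bases before each RefSeq start site (GRCm38.p6) are shown because the 2 genes shared their low values below; capitals mark the longest run the pair has in common.
Lyz2, chr10:117282273-117282522, minus strand: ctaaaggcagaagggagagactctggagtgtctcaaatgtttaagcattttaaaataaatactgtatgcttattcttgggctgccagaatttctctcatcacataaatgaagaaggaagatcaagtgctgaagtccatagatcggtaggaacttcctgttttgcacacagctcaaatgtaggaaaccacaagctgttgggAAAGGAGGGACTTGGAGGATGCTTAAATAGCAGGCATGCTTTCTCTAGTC
Lyz1, chr10:117292869-117293118, minus strand: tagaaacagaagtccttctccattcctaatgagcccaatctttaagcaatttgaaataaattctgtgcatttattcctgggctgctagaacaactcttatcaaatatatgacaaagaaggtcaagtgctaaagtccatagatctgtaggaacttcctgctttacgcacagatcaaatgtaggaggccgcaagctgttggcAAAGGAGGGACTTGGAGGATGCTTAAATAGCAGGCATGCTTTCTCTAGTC
The windows were identical at 152 of 250 positions (60.8%), and at 92 of the last 100. The shared run covered the 50 bases nearest the start site. In the transcripts, 195 of the 1267 stretches of 50 bases in Lyz2 (15.4%) were also present in Lyz1, so a part of the reads of either gene could have been assigned to both or to neither.

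The 6 libraries held 14189385 to 17467008 assigned counts. CPM values are counts scaled to the library total after that total was adjusted by edgeR's TMM scaling. The correlation of log2 CPM between libraries was 0.967 to 0.975 within a genotype and 0.967 to 0.977 between genotypes, and these ranges largely coincided. The first principal component held 38.8% of the variance and set Tmem173fl/fl replicate 3 and Tmem173iΔmye replicate 2 apart from the others. Genes of the exocrine pancreas were high in both, with Ctrl, a chymotrypsin-like protease, at 178.5 and 82.2 CPM there and at 1.8 to 3.4 CPM in the other 4 libraries. Over 21 pancreas genes the median deviation from the mean log2 CPM was 6.01 and 5.36 in these libraries. It was -0.16 in Tmem173iΔmye replicate 3, an intermediate level, and -3.58 to -3.08 in the remaining libraries. Tmem173fl/fl replicate 3 and Tmem173iΔmye replicate 3 had Xist and no Y-linked counts, and the other 4 libraries had the male pattern. Epithelial markers of the labelled tissue were high throughout, with Epcam at 1536 to 1954 CPM.

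Tmem173 itself did not differ beyond the spread between libraries in whole colon. It was measured at 23.45, 13.71 and 21.89 CPM in Tmem173fl/fl replicates 1 to 3 and at 16.47, 13.98 and 20.63 CPM in Tmem173iΔmye replicates 1 to 3. The groups overlapped, since the lowest value belonged to a floxed control. The fold change was 0.865 with a 95% interval of 0.62 to 1.21, or -0.21 ± 0.22 (SE) on the log2 scale (adjusted p = 1, edgeR), and the exact two-sided permutation test gave p = 0.6. From here on, differences are log2 fold changes of Tmem173iΔmye over Tmem173fl/fl, values after ± are standard errors and intervals are 95% intervals on that scale. Without both libraries rich in pancreas genes the log2 difference was -0.00045. A mean level below 0.62 of the control level over the whole tissue lay outside this interval. Counts were summed over the whole gene and over all cell types, so neither a shortened transcript of the recombined allele nor a loss limited to Lyz2-expressing cells could be read from them. None of the 46 tested genes within 1 Mb of Tmem173 on chromosome 18 had an unadjusted p under 0.05.

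Lyz2, which encodes the lysozyme of macrophages and neutrophils, had lower values in all 3 Tmem173iΔmye libraries. It stood at 143.4, 145.3 and 265.3 CPM in Tmem173fl/fl and at 90.5, 73.1 and 110.9 CPM in Tmem173iΔmye. The fold change was 0.496 with a 95% interval of 0.351 to 0.70, or -1.01 ± 0.23 (SE) on the log2 scale, and the groups did not overlap. The unadjusted p was 0.00075, yet the adjusted p was 1 (edgeR), and the exact permutation test gave 0.1, the smallest value that 3 against 3 libraries allow. Lyz1 was far scarcer per length, with a mean of 2.77 FPKM against 143 FPKM for Lyz2 in Tmem173fl/fl. It had 3.40, 3.04 and 3.84 CPM in Tmem173fl/fl and 1.40, 0.63 and 1.92 CPM in Tmem173iΔmye, and these groups did not overlap either (-1.38 ± 0.40, unadjusted p = 0.00396). Lyz1 was the only one of 30 tested genes within 1 Mb of Lyz2 with an unadjusted p under 0.05. The difference in Lyz2 was -1.17 to -0.66 when any 1 library was left out and -0.52 when both libraries rich in pancreas genes were left out.

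**Figure D1:**
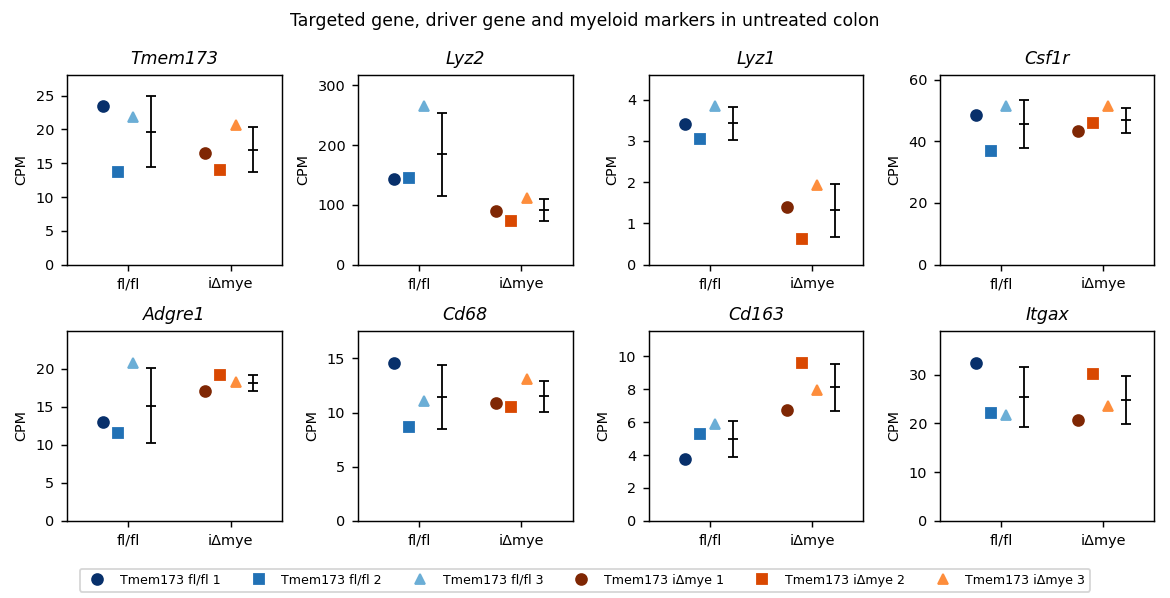
CPM of Tmem173, Lyz2, Lyz1 and 5 myeloid markers (y axes, from 0) in the 6 untreated libraries, 1 point per library, grouped by genotype on the x axis; black bars give the mean ± SD of 3 libraries. Lyz2 and Lyz1 lie lower in all 3 Tmem173iΔmye libraries, Cd163 lies higher in all 3, and the groups overlap for Tmem173, Csf1r, Adgre1, Cd68 and Itgax.

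Across all genes, no gene passed an adjusted p of 0.05 with at least a 2-fold difference in edgeR's quasi-likelihood test (0 of 24102, 0%). DESeq2 called 3 genes at the same thresholds and limma voom called 0. At an unadjusted p under 0.05 edgeR listed 720 genes (2.99%), of which 423 were higher (1.76%) and 297 lower (1.23%) in Tmem173iΔmye. The groups did not overlap for 920 genes that were higher (3.82%) and 845 that were lower (3.51%). These percentages are the background against which the gene lists below are read. The median log2 difference over all genes was -0.002, and 50.3% of genes had a lower value in Tmem173iΔmye.

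What the 6 libraries could exclude depended on expression. The 95% interval lay within a 2-fold difference in either direction for 12783 genes (53%) and within 1.5-fold for 8036. Among 5237 genes with a mean of 10 FPKM or more, 4913 (93.8%) were bounded within 2-fold, and the half-width of a typical interval was 0.35 on the log2 scale, or 1.27-fold. Among 8718 genes at 1 to 10 FPKM, 6898 (79.1%) were bounded, with a half-width of 1.38-fold. Among 10147 genes under 1 FPKM, only 972 (9.58%) were bounded and the half-width was 3.39-fold. Fitted differences of at least 2-fold were accordingly common at low expression, with 2721 genes under 1 FPKM and 51 at 10 FPKM or more.

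Components of the STING pathway were nearly all bounded. Of 15 tested genes, 14 had an interval within 2-fold, none was called, 4 had higher and 11 lower values, and the median log2 difference was -0.08. That median was -0.17 without Tmem173fl/fl replicate 3 and -0.03 without Tmem173fl/fl replicate 1. The sensor Mb21d1 stood at 8.25, 9.57 and 13.0 CPM in Tmem173fl/fl and 13.2, 10.1 and 10.5 CPM in Tmem173iΔmye (0.13, 95% interval -0.35 to 0.61). For the kinases Tbk1 and Ikbke the intervals were -0.29 to 0.38 and -0.43 to 0.29, and for the transcription factor Irf3 the interval was -0.46 to 0.29. All of these intervals include equal expression.

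Irf7, the interferon-induced relative of Irf3, varied more, at 627, 361 and 228 CPM in Tmem173fl/fl and 301, 368 and 403 CPM in Tmem173iΔmye, and the highest and the lowest value were both in controls (-0.18, interval -0.77 to 0.41). Enpp1, the ectoenzyme that degrades extracellular cyclic GMP-AMP, was bounded by -0.44 and 0.28, and Samhd1, a nucleotide triphosphohydrolase that limits cytosolic DNA, by -0.52 and 0.17. Tfam, the packaging protein of mitochondrial DNA, had 41.2, 43.4 and 55.6 CPM in Tmem173fl/fl and 46.9, 55.9 and 42.7 CPM in Tmem173iΔmye (0.05, interval -0.32 to 0.42). Trim56 and Trim32, ubiquitin ligases that act on STING, Nlrc3, a negative regulator of it, and Zbp1, a sensor of Z-form nucleic acids, were bounded as well.

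The Ifi200 genes, a family of DNA-binding proteins, were the exceptions in opposite directions. Ifi203 was at 38.9, 25.1 and 29.2 CPM in Tmem173fl/fl and 26.4, 24.4 and 17.1 CPM in Tmem173iΔmye, with overlapping groups (-0.46 ± 0.21, unadjusted p = 0.045). It was the 1 member of the 15 at an unadjusted p under 0.05, against a background of 1.23% for lower values. No member was at that level without Tmem173fl/fl replicate 1 or 3, without Tmem173iΔmye replicate 3 or in the fit of all 12 libraries. Ifi204 was the member that could not be bounded, because Tmem173iΔmye replicate 2 alone reached 52.4 CPM while the other 5 libraries lay between 13.7 and 23.4 CPM. Trex1, the exonuclease that clears cytosolic DNA, was listed at 0 counts in all 6 libraries, but in GENCODE for GRCm38 it lies wholly within the span of Atrip on the same strand, so that its reads may not have been assigned and the 0 is not read as absence.

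Interferon transcripts themselves were scarce or not detectable at this depth. Of 24 type I and type III interferon and receptor genes, 17 were too low to test. Of these, 15 had no count in any of the 6 libraries, a result that allows up to 0.172 to 0.211 CPM per library (3 counts over the unadjusted library total). Ifnb1 had 1 count in all and Ifnz had 2. The 4 receptor chains Ifnar1, Ifnar2, Ifnlr1 and Il10rb were all bounded within 2-fold, with Ifnar1 at 55.2 to 62.0 CPM in Tmem173fl/fl and 53.8 to 64.2 CPM in Tmem173iΔmye. Ifnl2, a type III interferon, had 1, 0 and 0 counts in Tmem173fl/fl and 4, 3 and 5 counts in Tmem173iΔmye (unadjusted p = 0.035, edgeR). No gene of the list had an unadjusted p under 0.05 without Tmem173fl/fl replicate 2 or 3, without Tmem173iΔmye replicate 1 or 3, or with DESeq2. Ifnl3, the neighbour and near-copy of Ifnl2, had 2 counts in each genotype, so that reads of the pair may have been split. Ifnk had 4 and 3 counts.

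**Figure D2:**
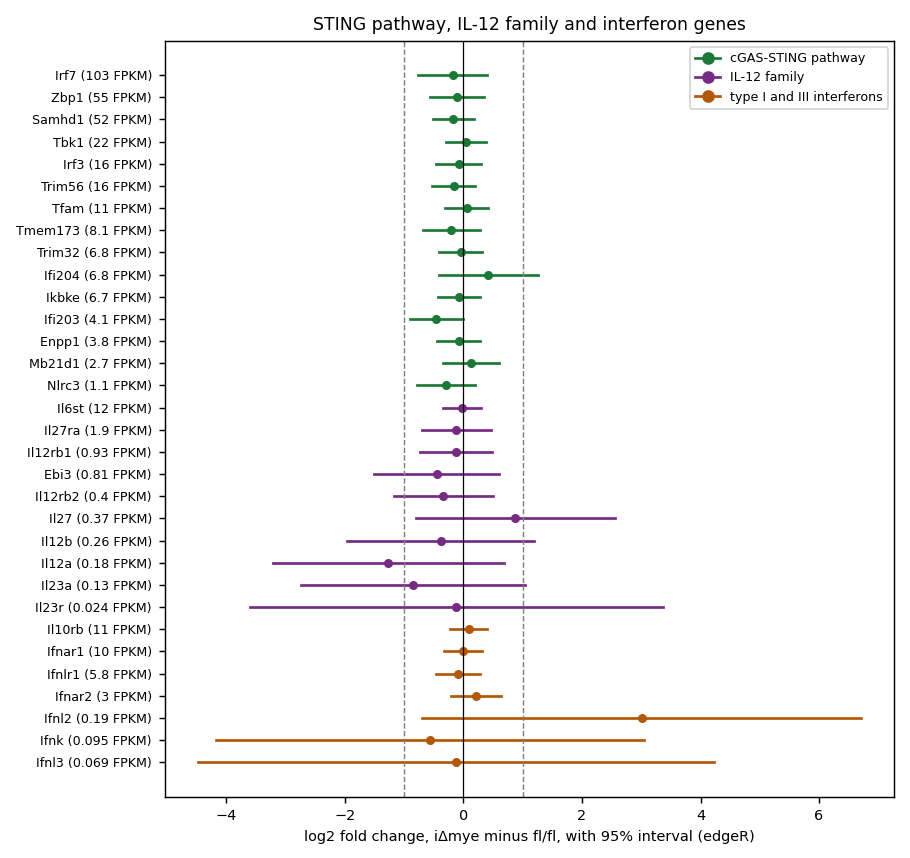
Fitted log2 fold change of Tmem173iΔmye against Tmem173fl/fl (x axis, points) with 95% intervals (lines) for tested genes of the STING pathway, the IL-12 family and the type I and type III interferon system, each labelled with its mean FPKM; dashed lines mark 2-fold. Of the STING pathway genes, 14 of 15 intervals stay inside the dashed lines, while the scarce IL-12 and interferon ligands have wide intervals.

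Interferon-stimulated genes are the transcriptional read-out of interferon signalling and include antiviral effectors such as Mx1 and the Ifit and Oas families. Of the 42 genes tested, 41 had lower fitted values in Tmem173iΔmye, with a median log2 difference of -0.32. Only Slfn5 had an unadjusted p under 0.05 (1 of 42, against 1.23% of all genes), the groups overlapped for all 42, and 29 were bounded within 2-fold. Without the filter on low values 13 lower genes were at that level and in male-pattern libraries 9, against 0 in the fit of all 12 libraries. Slfn5, a Schlafen family gene, was at 203, 104 and 98.3 CPM in Tmem173fl/fl and 74.8, 106 and 95.1 CPM in Tmem173iΔmye (-0.56 ± 0.25, unadjusted p = 0.041). Replicate 1 of the controls stood far above every other library, and the other 5 did not separate by genotype.

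The same library stood out across the list. Tmem173fl/fl replicate 1 had the highest value of the 6 libraries in 41 of the 42 genes. Ifit2 was at 821, 299 and 333 CPM in Tmem173fl/fl and 248, 546 and 286 CPM in Tmem173iΔmye, and Rsad2, the antiviral enzyme viperin, was at 204, 63.8 and 58.6 CPM against 57.3, 113.8 and 74.0 CPM. Isg15, the ubiquitin-like modifier, was at 227, 96.7 and 74.7 CPM against 86.1, 124 and 147 CPM, and Mx1 at 188, 64.0 and 50.1 CPM against 58.6, 95.1 and 51.0 CPM. The summed level of the list was 3274, 1754 and 1575 FPKM in Tmem173fl/fl and 1546, 2047 and 1828 FPKM in Tmem173iΔmye. Without Tmem173fl/fl replicate 1 the median changed sign to 0.09, and 28 genes had higher and 14 lower values in Tmem173iΔmye. Leaving out Tmem173iΔmye replicate 1 or 3 moved the median less far toward 0, to -0.20 and -0.26. The remaining omissions went the opposite way. The median was -0.49 with 13 lower genes at an unadjusted p under 0.05 without Tmem173fl/fl replicate 3, -0.44 with 3 without Tmem173fl/fl replicate 2, -0.42 with 6 without Tmem173iΔmye replicate 2, and -0.59 with 13 without both libraries rich in pancreas genes. Each of these fits kept Tmem173fl/fl replicate 1. The direction of the list thus turned on that 1 library, and its cause was not tested.

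The promoters of 2 of these genes, Slfn5 and Isg15, are shown because the genes of this list varied together from library to library. Both were shown on condition that they held the element marked below, so their own matches are examples and not a result. Sequences are the 250 bases before the RefSeq start site (GRCm38.p6), and capitals mark matches to the core of the interferon-stimulated response element, written here as GAAA, any 2 bases and GAAA.
Slfn5, chr11:82951852-82952101, plus strand: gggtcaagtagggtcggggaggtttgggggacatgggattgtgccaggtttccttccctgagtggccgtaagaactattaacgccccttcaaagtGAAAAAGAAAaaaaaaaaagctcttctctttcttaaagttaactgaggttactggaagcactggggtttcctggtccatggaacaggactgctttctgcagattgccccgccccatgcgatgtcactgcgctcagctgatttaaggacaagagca
Isg15, chr4:156200819-156201068, minus strand: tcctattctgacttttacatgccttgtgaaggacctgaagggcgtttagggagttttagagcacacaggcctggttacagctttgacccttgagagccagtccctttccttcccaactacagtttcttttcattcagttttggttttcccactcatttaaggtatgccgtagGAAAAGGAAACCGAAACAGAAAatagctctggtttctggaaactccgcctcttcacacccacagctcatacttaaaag
Slfn5 held 1 match, 155 bases before the start site, and Isg15 held 3 overlapping matches. RefSeq windows of 300 bases (250 before and 50 after the start) were found for 32 of the 42 genes, and the same element, searched on both strands, was present in 19 of their 38 windows (50%) against 1131 of 32851 windows of all genes (3.44%). A match describes the sequence and does not show that a factor bound there.

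**Figure D3:**
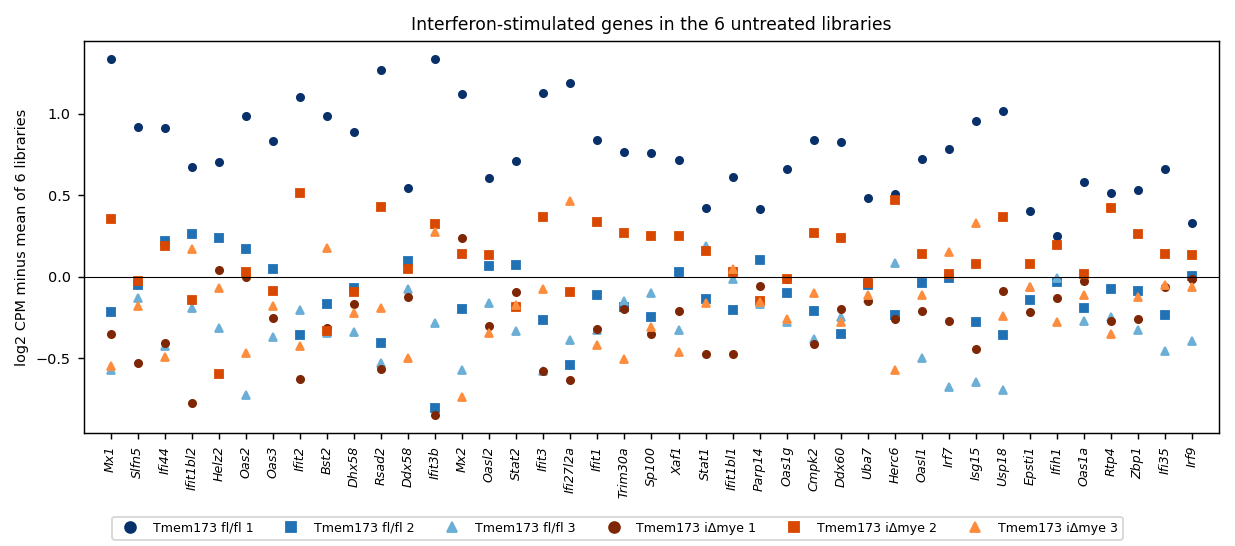
Interferon-stimulated genes (x axis, 41 genes, Ifi44l left out because 3 libraries had no count) as log2 CPM minus the mean of the 6 libraries (y axis), 1 point per library. Tmem173fl/fl replicate 1 lies on top for every gene shown, and the points of the other controls are mixed with those of Tmem173iΔmye.

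Interferon-gamma inducible GTPases, which attack pathogen vacuoles, had lower fitted values in all 18 tested members (median -0.28), of which 15 were bounded within 2-fold. Iigp1 was at 419, 287 and 382 CPM in Tmem173fl/fl and 212, 338 and 284 CPM in Tmem173iΔmye (-0.38, interval -0.79 to 0.02), and the groups overlapped. For 2 members they did not overlap, namely Gbp7 (-0.30, interval -0.63 to 0.02) and Gm4951 (-0.92 ± 0.33, unadjusted p = 0.016). Gm4951, an Irg-like GTPase, was at 62.4, 37.8 and 40.5 CPM in Tmem173fl/fl and 10.6, 28.1 and 35.6 CPM in Tmem173iΔmye. The median was -0.08 without Tmem173fl/fl replicate 1 and -0.09 without Tmem173iΔmye replicate 1, but -0.45 without Tmem173iΔmye replicate 2 and -0.39 without Tmem173fl/fl replicate 2. In the last of these, 8 lower members had an unadjusted p under 0.05 in place of 1.

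Genes of antigen presentation on MHC class I had lower fitted values in 14 of 15 tested members (median -0.21), and none was called. In all, 14 were bounded within 2-fold. Only Nlrc5, the transactivator of class I genes, had an unadjusted p under 0.05 (-0.46 ± 0.20, unadjusted p = 0.039, edgeR). B2m, the invariant light chain, was at 2660, 2047 and 2471 CPM in Tmem173fl/fl and 1634, 2730 and 1852 CPM in Tmem173iΔmye, with overlapping groups. Tmem173iΔmye replicate 1 was the lowest library in 15 of 15 genes, and Tmem173fl/fl replicate 1 the highest in 11. Leaving out either brought the median to -0.07, with 0 genes at an unadjusted p under 0.05. It was -0.33 with 3 genes at that level without Tmem173iΔmye replicate 3 and -0.31 with 2 without Tmem173fl/fl replicate 3.

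Through MHC class II, macrophages, dendritic cells and B cells present peptides to CD4+ T cells. Its genes had lower fitted values in all 11 tested members (median -0.48). Of these, 4 had an unadjusted p under 0.05 against a background of 1.23%, and none was called. H2-Ob, which forms H2-O, the inhibitor of peptide loading found mostly in B cells, was at 20.2, 9.44 and 16.9 CPM in Tmem173fl/fl and 9.25, 7.74 and 7.67 CPM in Tmem173iΔmye, and was the only member whose groups did not overlap (-0.91 ± 0.26, unadjusted p = 0.0034). The other members at that level were H2-DMb2 (-0.60 ± 0.26), H2-DMa (-0.58 ± 0.26) and Ciita, the class II transactivator (-0.52 ± 0.23). The libraries disagreed within Tmem173iΔmye. Cd74, the invariant chain, was at 2051, 1771 and 1972 CPM in Tmem173fl/fl but at 845, 1279 and 2092 CPM in Tmem173iΔmye, so that replicate 3 stood above every control. The median was -0.86 without that library and -0.23 without Tmem173iΔmye replicate 1. In place of 4 genes, 8 had an unadjusted p under 0.05 without Tmem173iΔmye replicate 3, 5 without Tmem173fl/fl replicate 2 and 1 without any one of the other 4 libraries. There were 0 in the fit of all 12 libraries and 0 without both libraries rich in pancreas genes.

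B cell genes were lower in every tested member, and more of them passed the unadjusted threshold than in any other of the 43 gene lists. All 15 had lower fitted values (median -0.81), 12 had an unadjusted p under 0.05 against a background of 1.23%, the groups did not overlap for 7 against 3.51%, and none was called. Ms4a1, which encodes CD20, was at 18.8, 11.6 and 16.8 CPM in Tmem173fl/fl and 9.66, 8.54 and 6.86 CPM in Tmem173iΔmye (-0.91 ± 0.22, unadjusted p = 0.0014). Cr2, the complement receptor of B cells and follicular dendritic cells, was at 15.1, 10.4 and 14.5 CPM against 7.97, 6.82 and 6.86 CPM (-0.88 ± 0.21, unadjusted p = 0.0011). For both genes all controls lay above all Tmem173iΔmye libraries.

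Pax5, the transcription factor of B cell identity, was at 14.3, 8.34 and 11.7 CPM in Tmem173fl/fl and 6.81, 6.13 and 6.62 CPM in Tmem173iΔmye (-0.81 ± 0.23), without overlap. Ighd, the IgD constant region of naive B cells, was at 39.6, 18.05 and 26.0 CPM against 12.2, 18.11 and 12.03 CPM (-0.98 ± 0.26), with overlap. Cd79a, Spib and Ighm did not reach the unadjusted threshold, and Ighm, at 61.9 to 124 CPM in controls and 69.5 to 81.8 CPM in Tmem173iΔmye, was bounded within 2-fold (-0.25, interval -0.70 to 0.21).

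Tmem173fl/fl replicate 1 was the highest library in 15 of 15 B cell genes. Without it the median was -0.49, 14 of 15 genes were still lower, and 5 had an unadjusted p under 0.05. Leaving out any other library gave medians of -0.99 to -0.74. Without Tmem173iΔmye replicate 2, 7 genes had an unadjusted p under 0.05, and without both libraries rich in pancreas genes 6 did. In a fit of all 12 libraries the median was -0.82 and no B cell gene had an unadjusted p under 0.05, and the cause was not tested. In whole tissue, fewer cells of a type and less RNA per cell cannot be told apart.

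**Figure D4:**
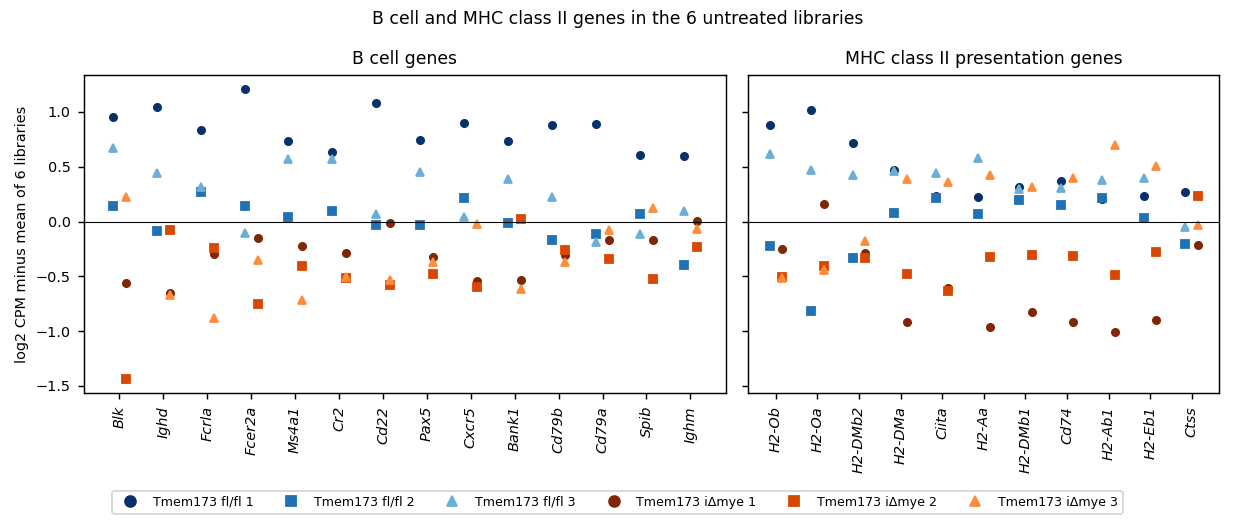
B cell genes (left, 14 of the 15) and MHC class II genes (right) as log2 CPM minus the mean of the 6 libraries (y axis), 1 point per library, controls in blue and Tmem173iΔmye in orange and brown. For B cell genes the Tmem173iΔmye points lie mostly below 0 and Tmem173fl/fl replicate 1 lies on top, while for class II genes Tmem173iΔmye replicate 3 lies with the controls.

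Plasma cell genes had lower fitted values in 9 of 13 tested members (median -0.16), and none was called. Of the lower genes, 4 had an unadjusted p under 0.05, against a background of 1.23%. Igkc, the kappa light chain, was at 1772, 1178 and 1354 CPM in Tmem173fl/fl and 854, 1090 and 860 CPM in Tmem173iΔmye (-0.62 ± 0.17, unadjusted p = 0.0029), and Igha, the IgA heavy chain, at 2266, 1554 and 1692 CPM against 1357, 1424 and 1471 CPM (-0.37 ± 0.16, unadjusted p = 0.032). Neither pair of groups overlapped, and both genes were bounded within 2-fold. Jchain, the joining chain of secreted IgA (-0.19, interval -0.57 to 0.19), and Mzb1, a chaperone of antibody secretion (-0.05, interval -0.59 to 0.49), were bounded with overlapping groups. Without Tmem173fl/fl replicate 1 the median of the list was 0.06 and 1 gene had an unadjusted p under 0.05. There were 2 lower genes at that level without any one of the Tmem173iΔmye libraries, beside 1 higher gene without replicate 1, and 0 in the fit of all 12 libraries.

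Immunoglobulin variable genes had fitted differences in both directions, and none was called in edgeR. Of 197 tested, 76 had higher and 121 lower values. Unadjusted p was under 0.05 for 21 higher genes (background 1.76%) and 36 lower genes (background 1.23%), and only 11 were bounded within 2-fold. Igkv6-20 had the smallest p of all genes in the comparison. It was at 11.1, 10.4 and 14.0 CPM in Tmem173fl/fl and 1.63, 2.81 and 3.60 CPM in Tmem173iΔmye (-2.14 ± 0.29, adjusted p = 0.12, edgeR), and every control lay above every Tmem173iΔmye library. In the other direction Igkv3-10 was at 1.95, 2.59 and 3.90 CPM against 8.96, 5.67 and 7.67 CPM (1.39 ± 0.30). Variable genes resemble one another closely, so that the assignment of their reads is uncertain.

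Macrophage and monocyte genes other than Lyz2 mostly had fitted values that were not lower in Tmem173iΔmye. Of 25 macrophage and monocyte genes, 20 had higher and 5 lower values (median 0.13), and 21 were bounded within 2-fold. Tmem173fl/fl replicate 2 was the lowest library in 13 of the 25, and without it 14 were higher and 11 lower (median 0.08). The median was 0.07 without Tmem173iΔmye replicate 2 and 0.25 without Tmem173fl/fl replicate 3. Csf1r, the receptor that macrophages need for survival, was at 48.6, 36.8 and 51.4 CPM in Tmem173fl/fl and 43.2, 45.8 and 51.3 CPM in Tmem173iΔmye (0.04, interval -0.32 to 0.40). Adgre1, which encodes F4/80 (interval -0.21 to 0.73), Cd68 (interval -0.47 to 0.49) and Itgam, which encodes CD11b (interval -0.25 to 0.83), were bounded too. Cd163, a scavenger receptor of resident macrophages, was at 3.76, 5.30 and 5.88 CPM against 6.75, 9.63 and 7.96 CPM, without overlap (0.70 ± 0.25, unadjusted p = 0.016). Marco, another scavenger receptor, had 0 counts in every control and 7, 2 and 8 counts in Tmem173iΔmye. Relative to the summed CPM of Csf1r, Adgre1 and Cd68, Lyz2 was 1.88, 2.55 and 3.19 in Tmem173fl/fl and 1.27, 0.97 and 1.34 in Tmem173iΔmye, and these ratios did not overlap.

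Dendritic cell genes had a median of -0.11 over 16 tested, with 5 higher and 11 lower, which became -0.02 with 8 and 8 without Tmem173iΔmye replicate 1 and -0.19 without Tmem173iΔmye replicate 2. Itgax, which encodes CD11c, was at 32.5, 22.1 and 21.8 CPM in Tmem173fl/fl and 20.7, 30.2 and 23.5 CPM in Tmem173iΔmye (-0.04, interval -0.48 to 0.40). Irf4, a factor of both dendritic and plasma cells, was the 1 member at an unadjusted p under 0.05 (-0.53 ± 0.24), and no member was at that level in 5 of the 6 fits with 1 library left out. Xcr1, a marker of cross-presenting dendritic cells, was low, at 2.20 to 2.94 CPM against 0.99 to 2.12 CPM (-0.63, interval -1.43 to 0.17). Most neutrophil genes were scarce, with S100a8 at 0, 0 and 24 counts in Tmem173fl/fl and 10, 10 and 3 counts in Tmem173iΔmye, and 1 of 16 was bounded. Ly6g was the exception in level, at 96.4, 39.7 and 71.8 CPM against 37.0, 33.6 and 73.3 CPM, with overlapping groups (interval -1.21 to 0.15). None of the 16 had an unadjusted p under 0.05, but without Tmem173fl/fl replicate 3 there were 3 higher genes at that level and the median went from 0.12 to 0.92. It was -0.26 without Tmem173fl/fl replicate 2, with 1 lower gene at that level, and -0.04 without Tmem173iΔmye replicate 2. T and NK cell genes had a median of -0.04 over 20, 12 were bounded, and none had an unadjusted p under 0.05. Within Tmem173iΔmye, replicate 2 was the highest of all libraries and replicate 1 the lowest in 16 of the 20 genes each. The median was -0.38 without replicate 2, with 3 genes at an unadjusted p under 0.05, and 0.21 without replicate 1.

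The IL-12 family, the cytokines by which dendritic cells and macrophages steer Th1 and Th17 cells, was too scarce in uninjured colon to be compared closely. The subunit Il12a had 13, 3 and 3 counts in Tmem173fl/fl and 2, 4 and 3 counts in Tmem173iΔmye. Il12b had 7, 5 and 15 against 3, 16 and 4 counts, Il23a had 9, 2 and 5 against 3, 2 and 5 counts, and Il27 had 3, 3 and 6 against 4, 16 and 5 counts. All of these overlapped. Their intervals ran from -3.22 to 0.68 for Il12a, -1.96 to 1.19 for Il12b and -2.74 to 1.03 for Il23a, and all 3 reached far below 0. Ebi3, the subunit shared by IL-27 and IL-35, was at 0.72 to 1.45 CPM in controls and 0.52 to 1.05 CPM in Tmem173iΔmye (-0.45, interval -1.51 to 0.61). Only the receptor chains Il12rb1, Il27ra and Il6st were bounded, and 0 of the 10 genes had an unadjusted p under 0.05.

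Most inflammatory cytokines and chemokines could likewise not be bounded. The groups did not overlap for 1 higher member (background 3.82%) and 2 lower members (background 3.51%). The higher was Cxcl1, with 4, 3 and 5 counts in Tmem173fl/fl and 7, 12 and 10 counts in Tmem173iΔmye, and the lower were Il1a and Il6. Of 26 tested, 0 had an unadjusted p under 0.05 and 10 were bounded, and the median of -0.08 became 0.20 without Tmem173fl/fl replicate 1 and -0.26 without Tmem173fl/fl replicate 2. Il1b was at 13.5, 4.14 and 7.38 CPM in Tmem173fl/fl and 6.87, 7.79 and 8.49 CPM in Tmem173iΔmye (-0.11, interval -0.84 to 0.62), Tnf at 3.69, 2.78 and 3.84 CPM against 3.03, 3.73 and 6.45 CPM (0.36, interval -0.35 to 1.06), and the T cell chemoattractants Cxcl9 and Cxcl10 were bounded. Of 14 T helper genes, Ccr6, the receptor of Ccl20 on B cells and Th17 cells, was the 1 member at an unadjusted p under 0.05, at 5.43, 3.17 and 3.72 CPM against 1.86, 1.55 and 2.38 CPM, without overlap (-1.08 ± 0.33, unadjusted p = 0.006). Of the 15 genes named in the study for acute colitis, including Cebpb, Cebpd, Slc26a3 and S100a9, 0 had an unadjusted p under 0.05 in this comparison and 8 were bounded within 2-fold.

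Many genes of the epithelium and the tissue wall were closely bounded, but not those of every epithelial list. All 14 general epithelial genes, all 20 cell cycle genes, all 20 genes of oxidative phosphorylation, all 18 of cholesterol synthesis and all 15 of smooth muscle had intervals within 2-fold, and 16 of 17 goblet cell genes and 17 of 18 fibroblast genes did. Of the colonocyte genes 14 of 22 were bounded, of the enteroendocrine genes 9 of 17 and of the antimicrobial and barrier genes 12 of 23. Slc26a3, the chloride exchanger of colonocytes, was at 637, 778 and 791 CPM in Tmem173fl/fl and 897, 725 and 579 CPM in Tmem173iΔmye (interval -0.37 to 0.36). Agr2, a goblet cell protein disulfide isomerase, was at 753, 712 and 676 CPM against 1008, 866 and 839 CPM, without overlap (0.34 ± 0.14, unadjusted p = 0.026). Retnlb, the goblet cell antibacterial protein RELMβ, was at 99.1, 105 and 39.3 CPM against 541, 147 and 62.1 CPM, with replicate 1 of Tmem173iΔmye far above the rest (1.62 ± 0.56, unadjusted p = 0.014). The goblet cell list had 3 higher genes at an unadjusted p under 0.05 and a median of 0.08. Without Tmem173fl/fl replicate 3 there were 0 higher and 1 lower (median -0.06), and in the fit of all 12 libraries 0 were either. The cell cycle gene Ube2c was lower without overlap (-0.48 ± 0.16), and the contractile genes Tpm2 (0.45 ± 0.14) and Myl9 (0.44 ± 0.15) were higher without overlap.

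Enteroendocrine genes had higher fitted values in 15 of 17 members (median 0.28), with 2 at an unadjusted p under 0.05 against a background of 1.76%. Chgb, a secretory granule protein, was at 41.5, 51.2 and 49.7 CPM in Tmem173fl/fl and 76.4, 75.0 and 101 CPM in Tmem173iΔmye (0.82 ± 0.17, unadjusted p = 0.00027). Chga, its relative, was at 24.5, 32.7 and 26.4 CPM against 36.1, 39.1 and 55.7 CPM (0.65 ± 0.19, unadjusted p = 0.0049). Neither pair of groups overlapped. Without Tmem173fl/fl replicate 1 the median was 0.09.

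Genes of tissues other than the mucosa also varied between libraries. Adipocyte genes had higher fitted values in 13 of 14 members (median 1.02), with 5 at an unadjusted p under 0.05. Fabp4, the adipocyte fatty acid binding protein, was at 7.24, 18.4 and 19.9 CPM in Tmem173fl/fl and 22.4, 36.5 and 82.1 CPM in Tmem173iΔmye (1.62 ± 0.41, unadjusted p = 0.0018). Tmem173fl/fl replicate 1 was the lowest library in 12 of the 14 genes, and without it the median was 0.57, while without Tmem173fl/fl replicate 3 it was 1.74. Ucp1, the uncoupling protein of brown fat, had 218 counts in Tmem173iΔmye replicate 3 and 0 in the other 5 libraries. Red blood cell genes had a median of 1.84 over 9 members because of Tmem173iΔmye replicate 2, where Hba-a1 reached 24.7 CPM against 0.91 to 3.84 CPM in the others. Without that library the median was 0.43 and no member had an unadjusted p under 0.05. The part of these tissues in the differences of other genes was not tested.

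**Figure D5:**
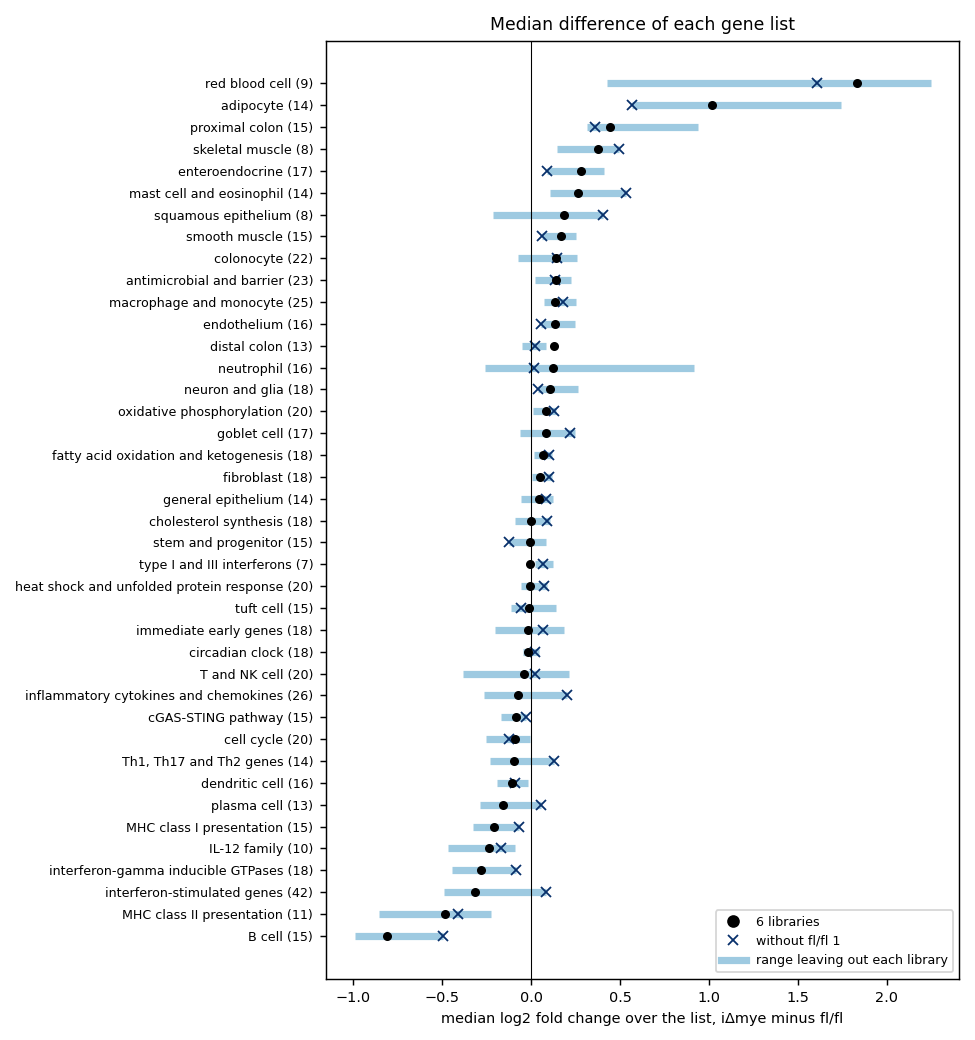
Median log2 fold change of each gene list, Tmem173iΔmye minus Tmem173fl/fl (x axis), with the number of genes tested in brackets; dots use all 6 libraries, crosses leave out Tmem173fl/fl replicate 1 and bars span the 6 medians with 1 library left out. B cell and MHC class II genes stay below 0 in every case. So do the lists of interferon-gamma inducible GTPases, MHC class I, the IL-12 family, the STING pathway, dendritic cells and the cell cycle, with bars that reach closer to 0. The cross of the interferon-stimulated genes lies above 0, and pancreas and sex-linked genes are not drawn.

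Single genes with at least a 2-fold difference, 1 FPKM and no overlap were also sought, whatever their function but leaving out predicted-gene and pseudogene symbols (Gm, Rik and the like). There were 19 such candidates with higher and 24 with lower values, of which 5 and 6 were immunoglobulin genes, and the 10 of smallest p on each side are named here. On the higher side stood Hp, the acute-phase protein haptoglobin, at 4.49, 10.2 and 7.02 CPM in Tmem173fl/fl and 40.6, 31.3 and 10.5 CPM in Tmem173iΔmye (1.92 ± 0.39, unadjusted p = 0.00034). Lrg1, a secreted glycoprotein of the same acute-phase kind, was at 2.03, 3.62 and 2.52 CPM against 8.21, 5.79 and 4.998 CPM (1.21 ± 0.31). Slc15a2, a peptide transporter, was at 3.19, 10.5 and 8.64 CPM against 19.5, 45.9 and 11.9 CPM (1.79 ± 0.44), and Slc16a3, a lactate transporter, at 8.98, 5.95 and 6.72 CPM against 11, 19.5 and 13.0 CPM (1.01 ± 0.25). For Hp and Slc15a2 the third Tmem173iΔmye library lay just above the highest control.

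The remaining higher genes were Pin4, a prolyl isomerase (1.197 ± 0.284), Mien1 (1.11 ± 0.29), Fabp4, Igkv3-10, Igkv4-72 and the light-chain constant gene Iglc3 (1.42 ± 0.30). On the lower side, besides Lyz2, Lyz1, Ccr6 and Igkv6-20, stood Chst3, a chondroitin sulfotransferase (-1.04 ± 0.30), and Il22ra2, the soluble receptor that neutralises IL-22. Il22ra2 was at 4.34, 3.17 and 2.88 CPM in Tmem173fl/fl and 1.40, 1.09 and 2.44 CPM in Tmem173iΔmye (-1.07 ± 0.37, unadjusted p = 0.013), and all controls lay above. The last 4 were the variable genes Ighv1-64, Ighv1-31, Ighv1-12 and Igkv4-91. Nupr1, a stress-induced chromatin protein, fell just short of the 2-fold limit and is named after its values were seen. It was at 41.0, 56.9 and 46.9 CPM against 82.0, 107 and 99.4 CPM (0.99 ± 0.17), and its adjusted p of 0.635 in edgeR was the second smallest of all genes. Every other gene had an adjusted p of 1. Among the symbols left out, Gm12185, a predicted protein-coding gene (-1.08, unadjusted p = 0.00021), and Gm10093, a processed pseudogene (1.55, unadjusted p = 0.00051), were the other genes that DESeq2 called beside Igkv6-20.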

How the data were processed

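Total RNA of colon was sequenced after poly(A) selection, and the deposited table gives a count and an FPKM value for each of 54532 genes in 12 libraries. Per the labels and the study's methods, the authors trimmed reads with fastp, aligned them to GRCm38 with HISAT2 2.0.5, and counted reads per gene with featureCounts 1.5.0-p3; whether strand was used is not given in the sources used here. The FPKM values were computed by the authors from those counts, the gene length and the library total. All 24 columns of per-sample values were mapped to samples by name, and 25 columns of the authors' own comparisons (fold changes and p-values among them) were not used.

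The deposited counts of the 6 untreated libraries were fitted with edgeR 4.0.16 in R 4.3.3 (TMM scaling, quasi-likelihood test, Benjamini-Hochberg adjustment over the 24102 genes with at least 0.1 FPKM in 3 of 12 libraries, no covariate). Calls needed an adjusted p under 0.05 together with a 2-fold difference in either direction. Intervals were 95% intervals from the fit, and 1090 genes with no count in at least 1 genotype had none. Limits given for zero counts cover counting error only. The fit was also run on simulated counts, from which no value is given here. Alternatives used limma 3.58.1 and DESeq2 1.42.0 and others listed at the end; 1 of them, which leaves out both libraries rich in pancreas genes, was chosen after seeing the data.

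The genes named were the targeted gene, the driver gene and its copy, up to 10 genes on each side by smallest p among those of at least 1 FPKM, 2-fold and no overlap (predicted-gene and pseudogene symbols left out), the leading members of 43 gene lists, and genes the study names. Other members given with values were picked for their role after their values were seen. Lists are described by counts and medians without a set test. The comparison and the lists were chosen with earlier results of these data known. Promoter sequences came from RefSeq windows (GRCm38.p6), and the transcripts of Lyz2 and Lyz1 from GENCODE for GRCm38. Single genes of the lists that are not reported here by name still count in the list totals.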

Additional observations from a re-analysis of the deposited data

How the results depend on the processing

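The number of genes called in edgeR (0) remained 0 under other scalings, edgeR's own expression filter, limma, a sex covariate, male-pattern libraries only, all 12 libraries in 1 fit and the fit without both libraries rich in pancreas genes. It was 68 without a filter on low values, 3 with DESeq2 (Igkv6-20, Gm12185 and Gm10093) and 328 at an unadjusted p of at most 0.05 with at least 2-fold. Leaving out each library gave 0 to 6 calls, with 6 without Tmem173fl/fl replicate 1 and 2 without Tmem173iΔmye replicate 1. Genes at an unadjusted p under 0.05 (720) became 1108 without the filter, 476 with edgeR's own filter and 667 to 855 with 1 library left out. Genes bounded within 2-fold (12783) became 21926 with limma on log2(FPKM + 1), a scale that shrinks differences of low genes by construction, and 11787 to 12318 with 1 library left out, and 8036 met a bound of 1.5-fold. Without the filter, edgeR's prior degrees of freedom rose from 9.35 to 97.8, and the part of this in the calls was not tested. Lyz2 then passed the adjusted threshold (-1.01, adjusted p = 0.000132), while over the other alternatives without a block its adjusted p was 0.058 to 1. Tmem173 did not pass in any fit, and was -0.41 to -0.06 with 1 library left out and -0.00045 without both libraries rich in pancreas genes.

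Same-numbered libraries were not treated as pairs, and their deviations from the genotype mean correlated at 0.087, -0.066 and 0.021. So few libraries cannot settle whether the samples were paired. In both untreated genotypes replicate 3 had the female pattern and replicates 1 and 2 the male pattern. A fit with the replicate number as a block called 94 genes, with prior degrees of freedom that were infinite, and gave Lyz2 at -0.97 (adjusted p = 0.001255, edgeR). Under the block 9 of 11 MHC class II genes had an unadjusted p under 0.05 in place of 4, 0 of them called, and Il1b changed sign to 0.033. Without the block, 1 of 11 class II genes was at that unadjusted level with edgeR's own filter, with library totals and with limma on log2 FPKM. The number was 7 without the filter on low values, with the sex covariate and in male-pattern libraries. It was 6 with limma voom and library weights, 5 with DESeq2 and 3 with limma voom.

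Other genes near 0 changed sign in single settings. Il1b was 0.063 with limma voom, 0.18 with library weights, 0.039 on log2(FPKM + 0.1) and 0.0097 on log2(FPKM + 1), Mzb1 was 0.015 with limma voom and 0.13 with library weights, and Jchain was 0.0099 in male-pattern libraries. With 1 library left out, Il1b ran from -0.43 to 0.42, Mzb1 from -0.23 to 0.30, Irf7 from -0.47 to 0.28, Itgax from -0.205 to 0.18, Ighm from -0.46 to 0.036, Csf1r from -0.094 to 0.13, Tfam from -0.061 to 0.20, Mb21d1 from -0.0058 to 0.34 and Tnf from -0.020 to 0.57. The cause was not tested. With 14189385 to 17467008 counts a library, transcripts under 1 FPKM could mostly not be bounded.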

Other observations

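Genes that mark the proximal colon had higher fitted values in 12 of 15 members (median 0.44), with 4 higher and 1 lower at an unadjusted p under 0.05. The median was 0.94 without Tmem173fl/fl replicate 2 and 0.31 without Tmem173iΔmye replicate 3. Without Tmem173iΔmye replicate 1, 0 genes were higher and 3 lower at that level, and in the fit of all 12 libraries 0 were either. Fabp2, the intestinal fatty acid binding protein, was at 88.0, 208.5 and 150.6 CPM in Tmem173fl/fl and 239, 347 and 158 CPM in Tmem173iΔmye, with overlapping groups. Reg3g, an antibacterial lectin, was at 0.36, 2.46 and 2.82 CPM against 14.3, 5.62 and 1.74 CPM, so that its highest value was in Tmem173iΔmye replicate 1. Slc37a2, a phosphate-linked sugar transporter, was at 271, 85.1 and 120.5 CPM against 54.9, 90.1 and 71.1 CPM, with its highest value in Tmem173fl/fl replicate 1. Distal colon genes had a median of 0.13 over 13 tested, and none had an unadjusted p under 0.05. That median was -0.05 to 0.08 with 1 library left out, below 0 without Tmem173iΔmye replicate 2 or 3, and 3 genes were higher at that level without Tmem173fl/fl replicate 1 or Tmem173iΔmye replicate 2, while 2 were lower without Tmem173iΔmye replicate 3.

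Several gene groups lay near the median of all genes when all 6 libraries were used. Heat shock and unfolded protein response genes had a median of -0.01 with 18 of 20 bounded within 2-fold, circadian clock genes -0.02 with 15 of 18 bounded, immediate early genes -0.02 with 16 of 18 bounded, and stem and progenitor genes 0.00 with 14 of 15 bounded. None of these 4 groups had a member at an unadjusted p under 0.05. The stem and progenitor median was -0.13 without Tmem173fl/fl replicate 1, with 1 lower gene at that level, and 0.09 without Tmem173fl/fl replicate 2, with 1 higher. The immediate early genes balanced opposed libraries, with a median of 0.18 without Tmem173iΔmye replicate 1 and -0.20 without Tmem173iΔmye replicate 3, each with 2 members at that level. Endothelial genes (median 0.13, 14 of 16 bounded), neuron and glia genes (0.10, 14 of 18 bounded) and tuft cell genes (-0.01, 9 of 15 bounded) had none either. With 1 library left out these medians ran from 0.05 to 0.25, from 0.04 to 0.26 and from -0.11 to 0.14, with up to 2, 1 and 1 genes at that level. Fatty acid oxidation genes included 2 at that level, Pdk4, a pyruvate dehydrogenase kinase, at 6.88, 14.4 and 8.88 CPM in Tmem173fl/fl and 13.4, 13.3 and 27.3 CPM in Tmem173iΔmye, and Angptl4, an inhibitor of lipoprotein lipase, at 3.26, 4.08 and 3.48 CPM against 5.35, 4.07 and 10.2 CPM.

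Gbp2b and Ifi44l, both on chromosome 3, were high in the same 2 untreated libraries, 1 of each genotype. Gbp2b, a guanylate-binding GTPase, was at 3.39, 65.2 and 3.52 FPKM in Tmem173fl/fl and at 1.89, 3.48 and 64.4 FPKM in Tmem173iΔmye. Ifi44l was at 0, 16.7 and 0 FPKM in Tmem173fl/fl and at 0.09, 0 and 11.8 FPKM in Tmem173iΔmye. In the 6 colitic libraries, which were compared with no group here, Gbp2b lay between 0.07 and 7.70 FPKM and Ifi44l between 0 and 2.35 FPKM. Of the 42 interferon-stimulated genes of the list, 41 were highest in Tmem173fl/fl replicate 1, which was not among these libraries. Both genes are named after their values were seen.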
